A study of Mus musculus with 8 samples.

Results

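Integrins are cell surface receptors built from an alpha and a beta subunit, and they tie cells to the extracellular matrix. Inside the cell, talins and kindlins bind the beta tail and switch the receptor on, while adapters such as vinculin, paxillin and the complex of integrin-linked kinase, PINCH and parvin join it to actin. In the eye the optic fissure closes where the edges of the optic cup meet, lose the basement membrane between them and fuse. The set described here is 32 listed genes, 17 integrin subunits and 15 focal adhesion genes, taken by gene symbol from the annotation of the arrays. Of these, 29 had a probe set (77 probe sets in all) and 25 had at least 1 among the 27022 probe sets kept for testing out of 45101, with 46 member probe sets kept.

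Optic fissure tissue had been collected with a laser capture instrument from sections of frozen mouse embryos, all wild type (C57BL/6 in the strain label, C57BL6/J in the growth protocol), with no treatment or altered allele. The groups were embryonic day 10.5 (E10.5, 3 arrays), 11.5 (E11.5, 3 arrays) and 12.5 (E12.5, 2 arrays), and each array carried RNA pooled from 3 embryos, so differences between single embryos cannot be seen. The labels give the arrays, lettered A to C, as biological triplicates or duplicates. In 1 place they say that the embryos of an array shared a litter, in another that they did not.

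The arrays were close in their median log2 signal (4.37 to 4.48) and differed more at the 99th percentile, which was 11.2 to 12.4 at E11.5, 12.5 to 12.9 at E10.5 and 12.5 to 12.6 at E12.5. For the Actb control probe sets the log2 signal at the 3 prime end exceeded that at the 5 prime end, a gap that grows as amplified transcripts get shorter, by 5.45 to 6.61 at E11.5, below the 6.83 to 6.96 of E10.5 and the 6.88 to 7.21 of E12.5. For Gapdh it was highest at E12.5, at 4.78 and 5.17. These control signals moved with stage, and their part in the results was not tested. The optic cup markers (8 of 10 listed genes had a probe set, all 8 above the filter) had a summed log2 signal of 13.51 to 13.72 at E10.5, 12.31 to 13.32 at E11.5 and 14.05 to 14.17 at E12.5. That sum is set by the brightest genes: from E10.5 to E12.5, 4 of the 8 were higher and 4 lower, with a median of 0.03 and 0 called by limma (4 at an unadjusted p below 0.05). Pigment epithelium markers (8 of 8) summed to 10.70 to 12.05, then 11.57 to 12.95, then 12.47 and 11.79. From E10.5 to E12.5, 7 of these 8 were higher and 1 lower, and 4 were called higher by limma. The neuron markers (9 of 10) stood at 7.41 to 7.51, then 7.24 to 7.44, and at E12.5 at 8.82 on array A and 13.19 on array B. Periocular mesenchyme markers (11 of 12) summed to 8.51 to 8.91 at E10.5, 9.88 to 10.69 at E11.5 and 10.21 and 9.38 at E12.5. All 9 of their tested genes were higher at E11.5 than at E10.5, 9 at an unadjusted p below 0.05 and 2 called by limma. All 9 tested neuron markers were higher at E12.5 than at E10.5, with 7 called. In such tissue, fewer cells of a type and less RNA per cell cannot be told apart, and a probe set's signal says nothing of its level against another probe set's.

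Among the 25 measured members, 3 integrin subunits passed the test in some comparison. Itgb8, the beta subunit that pairs with the alpha v chain to bind and activate latent TGF-beta, was higher at E12.5 than at E11.5 and E10.5. Itga4, the alpha 4 chain that binds fibronectin and VCAM1, was higher at E12.5 than at E10.5, and Itga8, the alpha 8 chain that binds nephronectin, was lower. No talin, kindlin, parvin, PINCH or other adapter passed in any comparison.

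From E10.5 to E12.5, 3 of 25 members were called by limma at an adjusted p below 0.05 (2 higher, 1 lower), beside 5.26% of all 13050 measured genes (3.49% higher, 1.78% lower). From E11.5 to E12.5, 1 of 25 was called, beside 2.02% of all genes (1.79% higher). From E10.5 to E11.5, 0 of 25 were called, beside 0.176% of all genes, and 5 of 25 had an unadjusted p below 0.05, beside 22.2% of all genes. In the comparisons of E11.5 and of E10.5 with E12.5, 3 and 8 of 25 members had an unadjusted p below 0.05, beside 18.1% and 24.2% of all genes. These shares come from few members, so 1 gene more or less moves them by 4 percentage points.

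For the genomic setting of the 3 called genes, their RefSeq promoter windows (250 bases before to 50 after the annotated start, GRCm38.p6, 5′ to 3′ on the gene's strand) are printed. The arrays did not measure these windows. Capitals mark matches, on either strand, to the GC box GGGCGG and the CCAAT box CCAAT, and no window held the TATA box TATAAA.

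Itgb8 (chr12:119238227-119238526, minus strand): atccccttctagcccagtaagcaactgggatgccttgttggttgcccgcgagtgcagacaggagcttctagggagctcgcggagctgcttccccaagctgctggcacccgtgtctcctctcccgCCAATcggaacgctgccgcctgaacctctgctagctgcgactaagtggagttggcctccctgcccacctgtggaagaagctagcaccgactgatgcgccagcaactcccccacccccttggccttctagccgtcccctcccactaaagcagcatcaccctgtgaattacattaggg
Itga8 (chr2:12301895-12302194, minus strand): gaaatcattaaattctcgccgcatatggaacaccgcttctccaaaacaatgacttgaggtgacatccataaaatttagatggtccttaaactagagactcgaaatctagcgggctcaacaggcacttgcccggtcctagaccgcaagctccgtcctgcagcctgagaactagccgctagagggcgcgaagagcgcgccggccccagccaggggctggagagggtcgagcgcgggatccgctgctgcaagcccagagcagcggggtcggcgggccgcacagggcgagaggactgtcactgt
Itga4 (chr2:79255176-79255475, plus strand): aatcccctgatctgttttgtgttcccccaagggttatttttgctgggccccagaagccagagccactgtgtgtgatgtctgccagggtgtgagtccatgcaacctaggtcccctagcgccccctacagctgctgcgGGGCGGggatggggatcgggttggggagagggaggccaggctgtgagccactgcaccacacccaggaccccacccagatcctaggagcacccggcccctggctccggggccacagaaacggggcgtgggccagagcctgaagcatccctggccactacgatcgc

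The Itgb8 window held 1 CCAAT box and no GC box, the Itga4 window held 1 GC box and no CCAAT box, and the Itga8 window held neither. Of all 32851 RefSeq promoter windows of this length, 37.4% held a CCAAT box, 35.7% a GC box and 13.6% a TATA box. The E-box CANNTG, which overlapped none of the marked matches, was found at 2 places in each of the Itgb8 and Itga8 windows and at 1 place in that of Itga4, beside 72.3% of all windows with at least 1 match. The windows were 60.7% (Itgb8), 59.0% (Itga8) and 64.3% (Itga4) G or C, beside a median of 52.7% over all windows. These are matches of letters and carry no information on binding.

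The log2 signal of Itgb8 was 7.30, 7.61 and 6.90 on the E10.5 arrays A to C, 7.75, 8.07 and 8.23 at E11.5, and 9.86 and 9.99 at E12.5. Every E11.5 array lay above every E10.5 array and both E12.5 arrays lay above all others. The change from E11.5 to E12.5 was 1.91 (SE 0.29, 3.75-fold, limma adjusted p = 0.00666), and that from E10.5 to E12.5 was 2.65 (SE 0.29, 6.29-fold, adjusted p = 0.000511). Between E10.5 and E11.5 the difference was 0.74 (SE 0.26, adjusted p = 0.181) and did not pass. Itgb8 was the only member of the 25 that was higher at each step with no overlap between arrays, a pattern that 0.759% of all genes showed. Neuron markers, and the sum of the optic cup markers though not each of them, were also highest at E12.5. The part of either in the Itgb8 values was not tested. Without array B of E12.5 the change from E11.5 was 1.84 and lost its call (adjusted p = 0.127), whereas the change from E10.5 was still called without it (2.59, adjusted p = 0.0126) and without any other single array. Itgb8 rests on 1 probe set.

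The log2 signal of Itga8 was 7.43, 7.57 and 8.51 at E10.5, 6.59, 6.07 and 6.42 at E11.5, and 5.97 and 5.93 at E12.5. All stages were separate, with the E10.5 arrays high and the E12.5 arrays low. From E10.5 to E12.5 Itga8 fell by 1.88 on the log2 scale (SE 0.33, 3.69-fold, adjusted p = 0.0089). The step from E10.5 to E11.5 was -1.48 (SE 0.29, adjusted p = 0.0958), and that from E11.5 to E12.5 was -0.41 (SE 0.33, adjusted p = 0.572). Itga8 was the only member lower at each step with no overlap, beside 2.84% of all genes. Marker lists also differed between these stages. Optic cup markers had a median of -0.86 from E10.5 to E11.5 and 0.03 from E10.5 to E12.5, with 4 higher and 4 lower in the latter. Among them Vax1, a homeobox gene of the ventral eye, was 8.66, 9.01 and 8.97 at E10.5 and 7.60, 7.81 and 7.89 at E11.5 (adjusted p = 0.109). At E12.5 Vax1 was 7.87 and 7.89 (adjusted p = 0.0501 from E10.5). Vax2, another such gene of the list, went the other way, from 9.38, 8.84 and 8.36 at E10.5 to 10.07 and 9.62 at E12.5 (adjusted p = 0.198). Periocular mesenchyme markers had medians of 1.41 and 1.07. The part of either in the Itga8 values was not tested. The call was lost without E12.5 A (adjusted p = 0.0504) or E12.5 B (adjusted p = 0.11), with changes of -1.90 and -1.87. Without E10.5 C and E11.5 A together, a choice made after seeing the data, the step from E10.5 to E11.5 was -1.25 and passed (adjusted p = 0.0461). A pseudocount of 64 on the linear scale brought the change from E10.5 to E12.5 to -1.23, still called. A further probe set of Itga8 lay below the filter, between 2.66 and 3.07 on all arrays.

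The log2 signal of Itga4 was 3.72, 4.45 and 4.74 at E10.5, 4.55, 4.73 and 4.71 at E11.5, and 5.63 and 5.41 at E12.5. The E10.5 and E11.5 arrays overlapped and both E12.5 arrays lay above them. From E10.5 to E12.5 Itga4 rose by 1.22 (SE 0.27, 2.32-fold, adjusted p = 0.028), while the step from E11.5 to E12.5 was 0.85 (SE 0.27, adjusted p = 0.15) and that from E10.5 to E11.5 was 0.36 (SE 0.24, adjusted p = 0.419). This signal lies near the lower end of the range, and 4 other probe sets of Itga4 were below the filter. The call from E10.5 to E12.5 was the least firm of the 3. It was lost without E12.5 A (adjusted p = 0.165), E12.5 B (adjusted p = 0.173) or E11.5 B (adjusted p = 0.0503), and with no trend in the variance prior (adjusted p = 0.0518). With a pseudocount of 64 the change was 0.38, still called. Leukocytes also carry alpha 4. The summed macrophage markers (12 of 12) were 9.22 to 10.55 at E10.5, 9.74 to 9.88 at E11.5 and 10.14 to 10.65 at E12.5, and 0 of their 9 tested genes were called by limma in any comparison (0, 1 and 2 at an unadjusted p below 0.05). The sum is led by Csf1r. Over the 9 tested genes the median was 0.05 from E11.5 to E12.5 (5 higher, 4 lower) and 0.43 from E10.5 to E12.5 (7 higher, 2 lower). Ptprc, the pan-leukocyte marker CD45, was 3.92 to 4.95 on the earlier arrays and 5.84 and 5.28 at E12.5, with differences of 1.16 from E11.5 (adjusted p = 0.0745) and 1.04 from E10.5 (adjusted p = 0.0633). Their part in the Itga4 values was not tested.

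**Figure D1:**
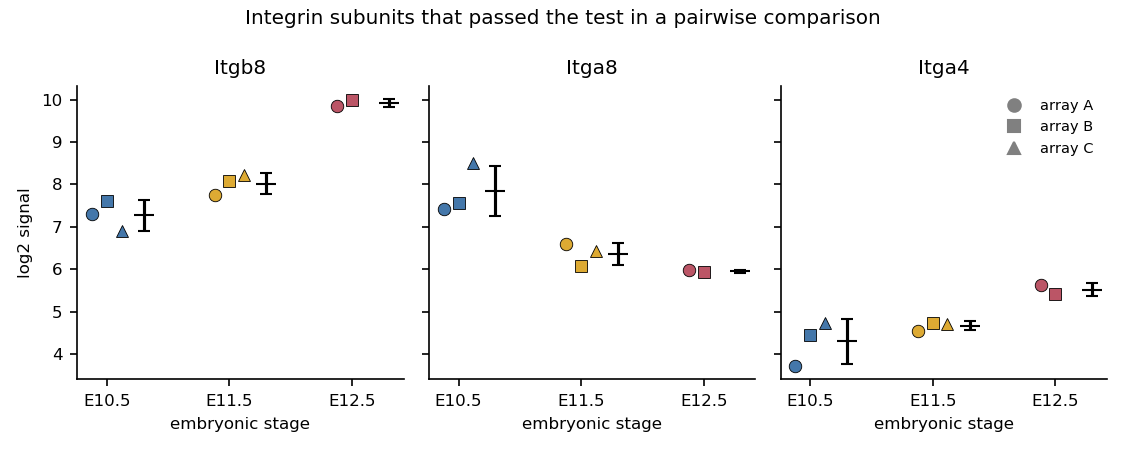
Log2 signal (vertical axis) of Itgb8, Itga8 and Itga4 by embryonic stage (horizontal axis), with 1 point per array shaped by its letter and black marks for the stage mean ± SD (n = 3, 3 and 2). Itgb8 climbs from 6.90 to 7.61 at E10.5 to 9.86 and 9.99 at E12.5, Itga8 drops from 7.43 to 8.51 to 5.97 and 5.93, and Itga4 stands apart only at E12.5.

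The other alpha subunits did not pass in any comparison. Itgav, the alpha v chain that partners Itgb8 and several other beta chains, was 10.30, 9.65 and 9.85 at E10.5, 9.17, 9.48 and 9.75 at E11.5, and 9.49 and 9.20 at E12.5. The E12.5 arrays lay below the E10.5 arrays, with a difference of -0.59 (SE 0.32, adjusted p = 0.309). Itga6, the laminin-binding alpha 6 chain, had stage means of 8.91 ± 0.46, 8.27 ± 0.46 and 8.29 ± 0.18 (SD, n = 3, 3 and 2). Its other kept probe set gave -1.06 from E10.5 to E12.5 (adjusted p = 0.0543), close to the threshold. Itga3, another laminin-binding chain, had 7.01 ± 0.24, 7.03 ± 0.16 and 6.98 ± 0.13 (SD, n = 3, 3 and 2) on its brightest probe set. Another kept probe set of Itga3 was lower at E11.5 than at E10.5 with no overlap, by a difference of -0.38 that did not pass (adjusted p = 0.295).

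Itga5, the alpha chain of the classical fibronectin receptor, differed by -0.40 (E10.5 to E11.5), -0.03 (E11.5 to E12.5) and -0.43 (E10.5 to E12.5), with signals between 4.10 and 4.89. Itga7, a laminin-binding chain known from muscle, was 3.60, 4.27 and 3.85 at E10.5, 4.42, 4.78 and 3.67 at E11.5, and 3.92 and 3.86 at E12.5, so its stages overlapped. Itga9, which binds tenascin and other matrix proteins, lay between 4.19 and 5.06 and differed by -0.33 from E10.5 to E12.5. Itga1 and Itga2, the collagen-binding chains, were below the filter on all probe sets. Of the 8 tested alpha subunits, 1 was higher and 7 lower at E12.5 than at E10.5, the latter with Itga3 at only -0.03 and Itga7 at -0.02. Limma called 1 higher and 1 lower, beside 3.49% and 1.78% of all genes. The median of the 8 alpha subunits was -0.38, against -0.10 for all genes. In either single step 0 were called by limma (2 and 1 at an unadjusted p below 0.05).

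Of the 4 tested beta subunits, Itgb8 alone was called. Itgb1, the shared partner of most alpha chains, was 7.24, 6.67 and 6.00 at E10.5, 5.83, 6.55 and 6.82 at E11.5, and 6.77 and 6.96 at E12.5. On this probe set the stages overlapped in every comparison, and the difference from E10.5 to E12.5 was 0.23 (SE 0.37, adjusted p = 0.755). Its other kept probe set gave 0.64 (adjusted p = 0.355), with both E12.5 arrays above those of E10.5. Itgb5, which pairs with alpha v, was 5.56, 6.00 and 6.82 at E10.5, 6.58, 6.96 and 7.07 at E11.5, and 6.71 and 6.52 at E12.5. The difference of 0.74 (SE 0.30) from E10.5 to E11.5 did not pass (adjusted p = 0.222), although all 4 kept probe sets of Itgb5 had the same sign in that step. The one used carries a manufacturer's suffix for probes that may match other transcripts, as do those used for Fermt3, Parva, Pxn, Bcar1 and Zyx. Itgb3, also an alpha v partner, was 4.15, 3.88 and 4.10 at E10.5, 3.99, 3.77 and 4.70 at E11.5, and 3.77 and 4.14 at E12.5, with no stage apart from the others. Its other kept probe set was lower at E11.5 than at E10.5 with no overlap, by a difference of -0.35 that did not pass (adjusted p = 0.273). Itgb4 and Itgb6, known mainly from surface epithelia, were below the filter. The probe sets of Itga1, Itga2, Itgb4 and Itgb6, 6 in all, read between 2.88 and 4.20 on every array.

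**Figure D2:**
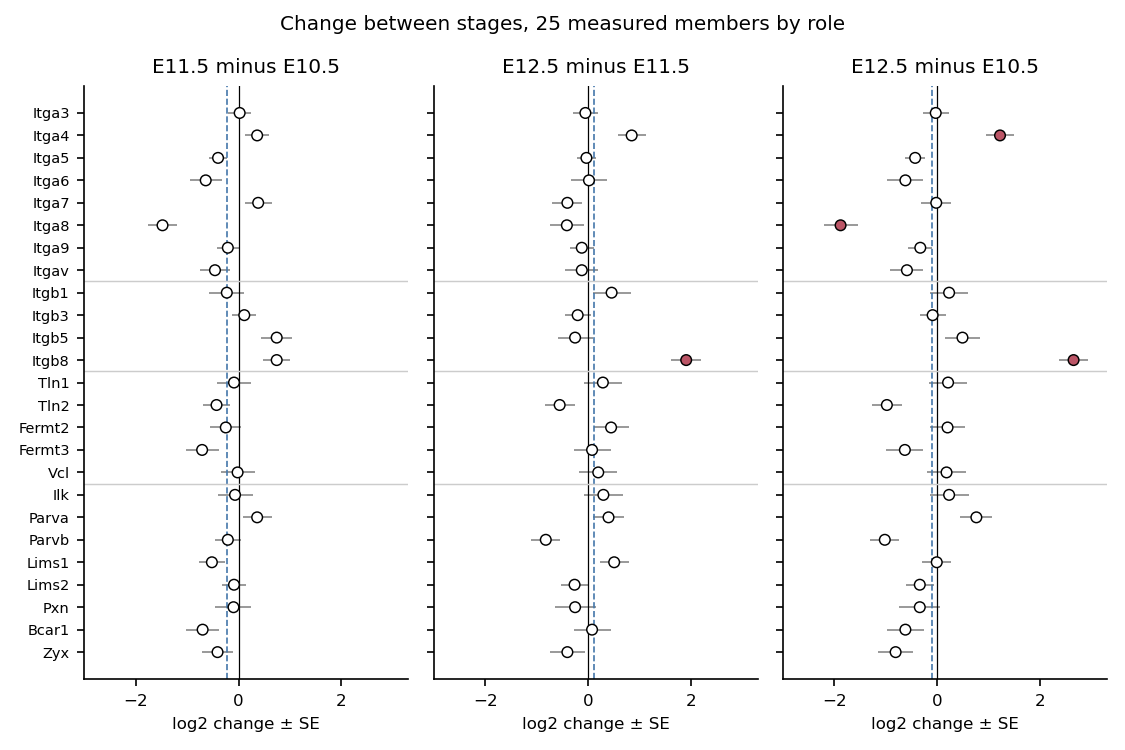
Log2 change ± SE (horizontal axis) of the 25 tested members (vertical axis, grey lines between alpha subunits, beta subunits, talins with kindlins and vinculin, and the remaining adapters) in the 3 comparisons. Filled points passed the test, namely Itgb8 in both comparisons with E12.5, and Itga4 and Itga8 from E10.5 to E12.5, and the dashed line is the median of all 13050 genes (-0.22, 0.11 and -0.10).

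The called subunits can be set against their usual partners within each array. The log2 ratio of Itgb8 to Itgav was 3.24 higher at E12.5 than at E10.5, and the 2 stages did not overlap. The ratio of Itga8 to Itgb1 changed by -2.11, again with no overlap, and that of Itga4 to Itgb1 was 0.99 higher with overlapping stages. These ratios are a description: each pair holds a subunit already called in this comparison, and an exact permutation test of 2 arrays against 3 cannot give a p below 0.10.

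Ligands and further partners were taken from lists. Of 49 listed integrin ligands 32 were tested. From E10.5 to E11.5, 13 were higher and 19 lower, and limma called 2 higher. From E11.5 to E12.5, 14 were higher and 18 lower, and 0 of 32 were called by limma (7 at an unadjusted p below 0.05). From E10.5 to E12.5, 18 were higher and 14 lower, and limma called 1 higher. Npnt, nephronectin, the ligand of the alpha 8 chain, was 5.70, 5.78 and 5.84 at E10.5, 7.21, 8.02 and 8.50 at E11.5, and 8.53 and 7.69 at E12.5. It rose by 2.14 (adjusted p = 0.0359) and by 2.33 (SE 0.37, adjusted p = 0.00494) from E10.5 to E11.5 and to E12.5. The latter is the comparison in which Itga8 fell. The Npnt probe set also carries a manufacturer's suffix for probes that may match other transcripts. Other genes moved with Npnt. From E10.5 to E11.5 the median was 1.41 over periocular mesenchyme markers and 1.46 over pigment epithelium markers, among which Tyr, tyrosinase, rose by 4.78 (adjusted p = 0.00159) and Gpr143 by 2.73 (adjusted p = 0.0143). Cryab, a crystallin listed with the lens markers, rose by 3.89 (adjusted p = 0.00159). The median of the 5 tested lens markers was -0.08 in this step, with 2 higher and 3 lower. Their part in the Npnt values was not tested. Postn, periostin, the other ligand called, was 5.62, 5.39 and 4.57 at E10.5 and 7.29, 8.58 and 9.18 at E11.5, a rise of 3.15 (adjusted p = 0.0401), and it is itself 1 of the listed mesenchyme markers. Its signal at E12.5 was 7.56 and 5.89, and its later changes did not pass.

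Tgfb2, a TGF-beta ligand kept latent until released, was 9.47, 8.71 and 9.25 at E10.5 and 10.37 and 9.83 at E12.5, a difference of 0.96 (SE 0.34, adjusted p = 0.126). Tgfb3, another TGF-beta ligand of the list, differed by 0.24 between these stages (adjusted p = 0.452), and Tgfb1 had no kept probe set. Fn1, fibronectin, differed by 0.45 between these stages (adjusted p = 0.435), and Vcam1, a ligand of alpha 4, by -0.30 (adjusted p = 0.361). Of 61 tested genes of adhesion signalling (72 listed), 0 were called by limma from E10.5 to E11.5 (14 at an unadjusted p below 0.05) and 1 in each of the other comparisons. Fyn, a Src family kinase, was 7.08, 7.48 and 7.67 at E11.5 and 8.77 and 9.53 at E12.5, a rise of 1.74 (adjusted p = 0.0301). Cav1, caveolin 1, was 3.81, 4.19 and 4.30 at E10.5 and 5.11 and 4.88 at E12.5, a rise of 0.90 (adjusted p = 0.0482). The E12.5 arrays of Fyn lay above every earlier array, and its difference of 1.34 from E10.5 did not pass (adjusted p = 0.0507). Those of Cav1 lay above the E10.5 arrays but overlapped E11.5, where it was 4.94, 4.30 and 4.54. Of 9 integrins outside the set, 4 were tested and 0 were called by limma in any comparison (0 also at an unadjusted p below 0.05). Itgb2, the leukocyte beta chain, read 3.54 to 3.99 on all arrays but E10.5 A, where it was 5.18, and Itga2b, the platelet alpha chain, read 6.03 to 6.65.

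**Figure D3:**
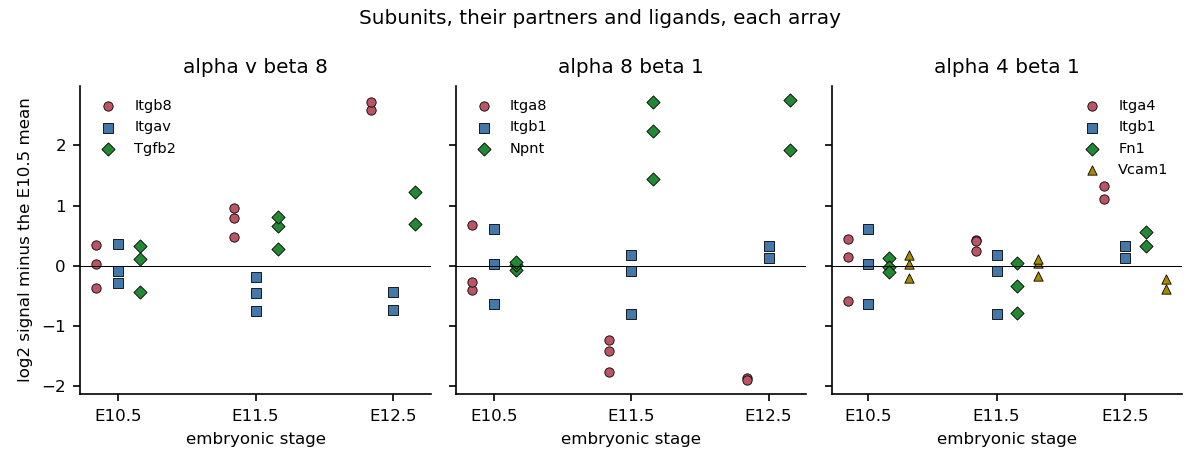
Log2 signal minus the gene's E10.5 mean (vertical axis) by stage (horizontal axis), 1 point per array, for Itgb8 with Itgav and Tgfb2, for Itga8 with Itgb1 and Npnt, and for Itga4 with Itgb1, Fn1 and Vcam1. Itgb8 stands apart from Itgav at E12.5, and Itga8 lies below zero at E11.5 and E12.5 where Npnt lies above it.

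Talins, kindlins and vinculin, which couple the beta tail to actin, had 0 of 5 tested members called by limma in any comparison (1, 0 and 1 at an unadjusted p below 0.05). Tln2, the second talin, was 7.51, 8.01 and 8.32 at E10.5, 7.70, 7.44 and 7.41 at E11.5, and 7.06 and 6.87 at E12.5. The E12.5 arrays were lowest, and the difference from E10.5 of -0.98 (SE 0.29) missed the threshold (adjusted p = 0.0736). Without E10.5 A it was -1.20 and passed (adjusted p = 0.0471), but 15 of the 17 other settings tried for this probe set did not call it. The other kept probe set of Tln2 gave -0.31 from E10.5 to E12.5 (adjusted p = 0.452). Tln1, the widely expressed talin, had 7.77, 6.64 and 6.45 at E10.5, 6.50, 6.99 and 7.11 at E11.5, and 7.08 and 7.24 at E12.5. Its 3 kept probe sets differed in sign in every comparison.

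Fermt2, kindlin-2, was at 9.28 ± 0.45, 9.03 ± 0.36 and 9.48 ± 0.06 (SD, n = 3, 3 and 2), and Vcl, vinculin, at 8.59 ± 0.58, 8.57 ± 0.39 and 8.77 ± 0.29. On these probe sets neither gene differed between stages by more than 0.45. The other 2 kept probe sets of Fermt2 were lower at E11.5 than at E10.5 with no overlap, by differences of -0.58 (adjusted p = 0.188) and -0.52 (adjusted p = 0.221) that did not pass. Fermt3, the kindlin of blood cells, read 6.55, 5.61 and 7.03 at E10.5, 5.57, 5.53 and 5.95 at E11.5, and 5.91 and 5.62 at E12.5, so arrays A and C of E10.5 were high and the stages overlapped. On this probe set the step from E10.5 to E11.5 was -0.71. The other kept probe sets of Fermt3, with mean signals of 4.23 and 3.97, gave 0.18 and -0.17. Fermt1 had no probe set by symbol and was not analysed here.

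The remaining adapters also had 0 of 8 tested members called by limma in any comparison (0, 1 and 3 at an unadjusted p below 0.05). Parvb, beta-parvin, was 5.61, 4.89 and 5.68 at E10.5, 5.14, 5.06 and 5.36 at E11.5, and 4.07 and 4.67 at E12.5. Both E12.5 arrays were below all others, with a difference from E10.5 of -1.02 (SE 0.28) that missed the threshold (adjusted p = 0.0595). Without E10.5 B it was -1.28 and passed (adjusted p = 0.0243), but 15 of the 17 other settings tried for this probe set did not call it. A pseudocount of 64 brought the difference to -0.33. Parva, alpha-parvin, had signals of 6.38, 6.09 and 6.13 at E10.5, 5.94, 6.73 and 7.01 at E11.5 and 7.07 and 6.85 at E12.5, a difference of 0.76 (SE 0.31, adjusted p = 0.178) from E10.5 to E12.5. Its E12.5 arrays lay above those of E10.5, and the E11.5 arrays overlapped both. These 2 paralogues are alternative partners of integrin-linked kinase.

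Ilk, that kinase, was at 8.35 ± 0.44, 8.27 ± 0.62 and 8.57 ± 0.18 (SD, n = 3, 3 and 2), with overlapping stages. Lims1, the PINCH adapter of the same complex, was 9.50, 9.14 and 9.15 at E10.5, 8.52, 8.98 and 8.71 at E11.5, and 9.30 and 9.20 at E12.5. The E11.5 arrays were the lowest, but -0.52 and 0.51 in the 2 steps did not pass (adjusted p = 0.276 and 0.382). Lims2, its paralogue, lay between 3.89 and 4.88 and overlapped in all comparisons.

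Bcar1, the docking protein p130Cas, was 9.48, 9.21 and 10.42 at E10.5, 8.81, 9.05 and 9.15 at E11.5, and 9.07 and 9.09 at E12.5. The E10.5 arrays were above all others, most of all array C, and the difference of -0.70 (SE 0.32) from E10.5 to E11.5 did not pass (adjusted p = 0.258). Pxn, paxillin, was 9.87, 9.27 and 10.70 at E10.5 and between 9.38 and 9.94 on the later arrays. Zyx, zyxin, was 5.20, 5.77 and 6.65 at E10.5 and between 5.05 and 5.48 later, with -0.81 (SE 0.34, adjusted p = 0.186) from E10.5 to E12.5. For all 3 the highest value was that of E10.5 C. Ptk2 and Itga11 had no probe set by symbol and were not analysed here.

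**Figure D4:**
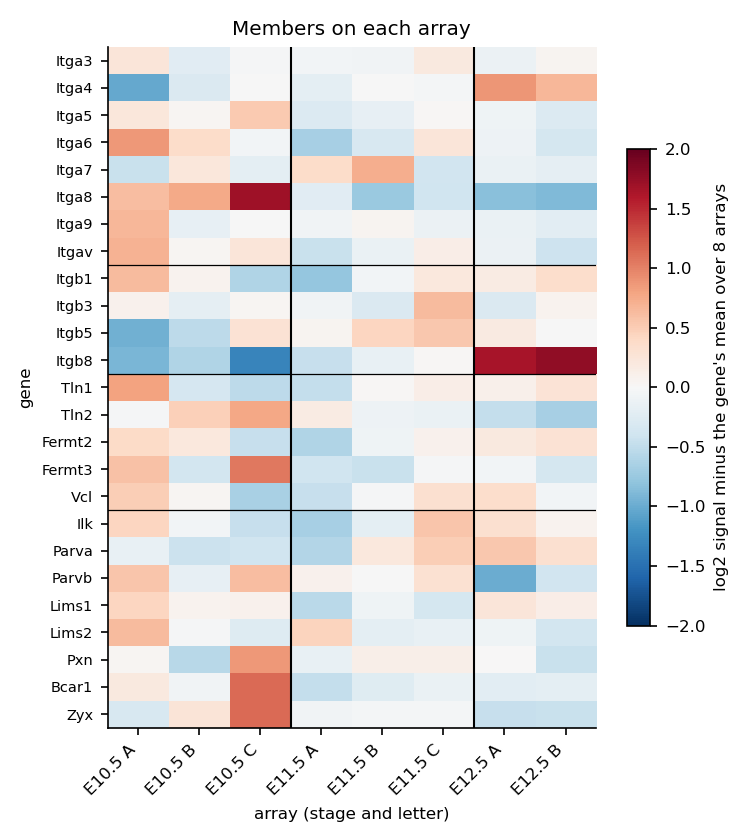
Log2 signal of each tested member (rows, by role) on each array (columns) minus the gene's mean over the 8 arrays, from blue (lower) to red (higher). Itgb8 and Itga8 form opposite gradients over the stages, while Bcar1, Pxn, Zyx and Fermt3 are highest on array E10.5 C.

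The members varied more within E10.5 than within the later stages. The median SD over members was 0.45 at E10.5 (n = 3), 0.26 at E11.5 (n = 3) and 0.13 at E12.5 (n = 2), beside 0.31, 0.25 and 0.12 for all genes. Within E11.5, array A was the lowest for 16 of 25 members and array C the highest for 16, beside 63.9% and 61.3% of all genes, which are like shares. The median change of the 25 members was -0.21 from E10.5 to E11.5, -0.03 from E11.5 to E12.5 and -0.09 from E10.5 to E12.5, against -0.22, 0.11 and -0.10 for all genes. After quantile normalization the first of these member medians turned to 0.12, and the median over every tested probe set went from -0.18 to -0.02. The arrays did not overlap for 5 of 25 members in that step, for 9 in the next and for 11 from E10.5 to E12.5, beside 26%, 46% and 47.6% of all genes. Of 15 genes with several kept probe sets, 7, 9 and 11 had the same sign on all of them in the 3 comparisons, in the same order.

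**Figure D5:**
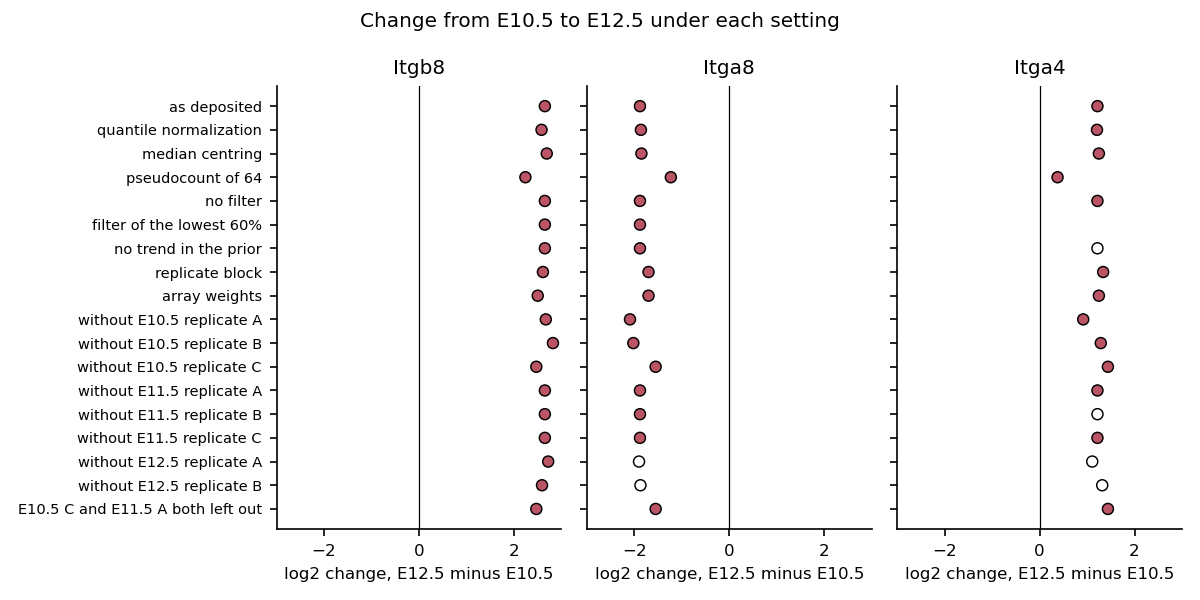
Log2 change from E10.5 to E12.5 (horizontal axis) of Itgb8, Itga8 and Itga4 as deposited and under each other setting (vertical axis), filled where the adjusted p was below 0.05. Itgb8 is filled in every row, whereas Itga8 and Itga4 lose their calls when an E12.5 array is left out, and Itga4 has no point under the stricter filter.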

How the data were processed

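Per the labels' protocols, RNA of optic fissure tissue went through 2 rounds of T7 amplification with biotin labelling, and 8 arrays were hybridised. The deposited values are log2 signals, 1 per probe set and array. The submitters' processing notes name GCOS 1.4 without its role, and summarization, background correction and normalization are not given in the sources used here. Such amplification favours 3 prime ends, so probe sets far from them can read low.

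The 64 control probe sets and the lowest 40% by mean log2 signal (below 3.94) were left out. A gene was named from probe sets with 1 gene symbol in the platform's annotation of 2016 and is represented by the one of its kept probe sets that was brightest on average. The fit, by limma 3.58.1 (R 4.3.3), covered all kept probe sets in 1 model of stage over all 8 arrays (5 residual degrees of freedom) with a variance trend and Benjamini-Hochberg adjustment over the 27022. The scripts were tested on simulated data.

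The members and lists were chosen with earlier results of these data known. Values on every array are given for called members and for the 3 largest rises and falls per comparison and the beta subunits, and for list genes that were called. A few further members and ligands were added after their values were seen, such as Itgav, Tln1, Pxn, Zyx, Tgfb2, Fn1 and Vcam1. So were the single marker genes Vax1, Vax2, Ptprc, Tyr, Gpr143 and Cryab.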

Additional observations from a re-analysis of the deposited data

How the results depend on the processing

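Of the settings tried, array weights changed most. They gave 5, 6 and 6 called members from E10.5 to E11.5, E11.5 to E12.5 and E10.5 to E12.5, against 0, 1 and 3, but the weights rested on E11.5 B (218.34, at most 1.20 elsewhere), the estimation did not converge, and 18.6%, 46.3% and 12.5% of all probe sets were then called. Leaving out 1 array gave 0 to 1 called members from E11.5 to E12.5 (0 without E12.5 B) and 1 to 4 from E10.5 to E12.5 (1, Itgb8, without either E12.5 array). With 1 array left at E12.5, its spread is assumed to be that of the other stages. Leaving out E10.5 C and E11.5 A together, chosen after seeing the data, gave 1 called member (Itga8) from E10.5 to E11.5. With the replicate block, on the letters A to C, the counts were 0, 1 and 3 with the same members. Deviations from the stage means correlated between -0.39 and 0.13 for same-letter arrays, and at 0.41 for E10.5 A with E11.5 C. Such deviations cancel out within a stage, so these values cannot decide whether the letters pair the arrays. Without a filter, or after quantile normalization, median centring or the pseudocount of 64, the same members were called as in the deposited values, and the mean of a gene's probe sets added Parvb from E10.5 to E12.5. None of the single-member changes recomputed under these settings turned its sign. Under the filter of the lowest 60% Itga4 was not tested. The few arrays and signals near background limit what can be seen for Itga4, Itga7, Itga9, Itgb3 and Lims2. The calls of ligand and signalling genes were not recomputed under these settings.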
